A study of Danio rerio with 4 samples.

Results

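Aminoacyl-tRNA synthetases join each amino acid to its transfer RNA, the step that sets which amino acid a codon receives in protein synthesis. Animal cells carry a cytoplasmic set, which serves the ribosomes of the cytosol, and a separate set, encoded in the nucleus and imported into mitochondria, which serves the mitochondrial ribosomes. Hepatocytes export large amounts of plasma protein and therefore draw heavily on the cytoplasmic set. The synthetase genes were taken as all genes whose description in the authors' 4 comparison tables contained "--tRNA ligase" or "-tRNA synthetase", which gave 39 of the 33737 genes measured. Of these, 16 had a description ending in "mitochondrial" and 23 did not and are called cytoplasmic. A mean RPKM (the reads of a gene scaled by its length and by the size of its library) of at least 1 over the libraries was reached by 22 of the 23 cytoplasmic and 10 of the 16 mitochondrial genes, and 11135 genes in all met this minimum. Those 11135 are called the tested genes. Symbols are printed as the gene table gives them, and members without a symbol are named by their amino acid and ID.

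The libraries came from liver cells of zebrafish larvae of strain ABGO, wild-type or zc3h8-/-, at 5.5 and 7.5 days post fertilization (dpf), with 1 library for each genotype and stage. All 4 groups carried Tg(lfabp:Dendra2-NTR), a transgene in which the liver fatty acid binding protein promoter drives the fluorescent protein Dendra2 and nitroreductase in hepatocytes. Livers were dissected, dissociated with trypsin and sorted by flow cytometry, and cDNA was made with Smart-seq2, a full-length method for small amounts of RNA. How many larvae entered a library is not stated in the labels, and the age of a group is its stage. No group had a replicate, so that the differences below have no replicate check. The intervals and bounds given are 95% intervals of counting error only.

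Reads counted to genes lay between 29649005 and 36999967 per library. Of the tested genes, 81.4% had more than 3 reads in wild type and 73.8% in the mutant at 5.5 dpf, against 65.8% and 76.4% at 7.5 dpf. All 14 hepatocyte marker genes that could be matched had more than 3 reads in each library, and their summed RPKM was 91210, 47580, 79324 and 21709 in the order wild type and mutant at 5.5 dpf, then wild type and mutant at 7.5 dpf. Values for the 4 libraries are given in that order throughout. The targeted gene is not analysed here, because the gene table gave the symbol zc3h8 to no ID.

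Cytoplasmic synthetase transcripts were far more abundant than mitochondrial ones in every library. The summed RPKM of the 22 cytoplasmic genes was 366, 491, 215 and 538, and that of the 10 mitochondrial genes was 28.1, 60.2, 22.1 and 36.4. The cytoplasmic sum was thus lowest in wild type at 7.5 dpf and highest in the mutant of the same stage. It exceeded the mitochondrial sum 8.15-fold to 14.8-fold. The place of the highest sum rested on the lysine enzyme gene. Without that gene the cytoplasmic sum was 286, 434, 184 and 341 RPKM. The mutant of the earlier stage was then highest, and wild type at 7.5 dpf was still lowest. The place of the highest sum of all 22 genes rested on the scaling of the libraries as well. Scaling by median-ratio size factors, used below, divides the RPKM by 0.868, 1.07, 0.892 and 1.21 in library order. Under that scaling the mutant of the earlier stage had the highest sum of the 22 genes, and wild type at 7.5 dpf still had the lowest. The gap between the genotypes at the earlier stage was then narrower. The median of the members' mean RPKM was 11.4 for cytoplasmic and 3.03 for mitochondrial genes, against 6.19 for all tested genes.

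Lysine and histidine enzyme genes led the cytoplasmic set. The lysine enzyme gene (ENSDARG00000044220), whose human counterpart gives both a cytosolic and a mitochondrial form of the protein, stood at 80.4, 56.5, 30.5 and 197 RPKM. It was the highest member in wild type at 5.5 dpf and in the mutant at 7.5 dpf. The histidine enzyme gene, which the gene table names HARS2 although its description is cytoplasmic, stood at 55.7, 78.0, 45.5 and 41.3 RPKM. It was the highest member in the other two libraries, and its values lay closer together. Together these 2 genes made up 27.4 to 44.3% of the cytoplasmic sum.

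High levels were also found for glycine and threonine enzyme genes. GARS1, also a source of both protein forms in human cells, had 18.1, 7.14, 35.5 and 58.3 RPKM, with both 7.5 dpf libraries above both 5.5 dpf libraries. TARS1 had 17.96, 38.5, 5.51 and 55.5 RPKM, with both mutant libraries above both wild-type libraries. Of the 12 members with more than 3 reads in every library, 3 kept their highest value within 2-fold of their lowest. The like share of all tested genes was not computed. These were HARS2, the phenylalanine alpha subunit gene (ENSDARG00000032750; 13.0, 12.8, 7.13 and 12.4 RPKM) and the methionine enzyme gene MARS1 (11.3, 11.3, 11.9 and 7.87 RPKM).

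**Figure D1:**
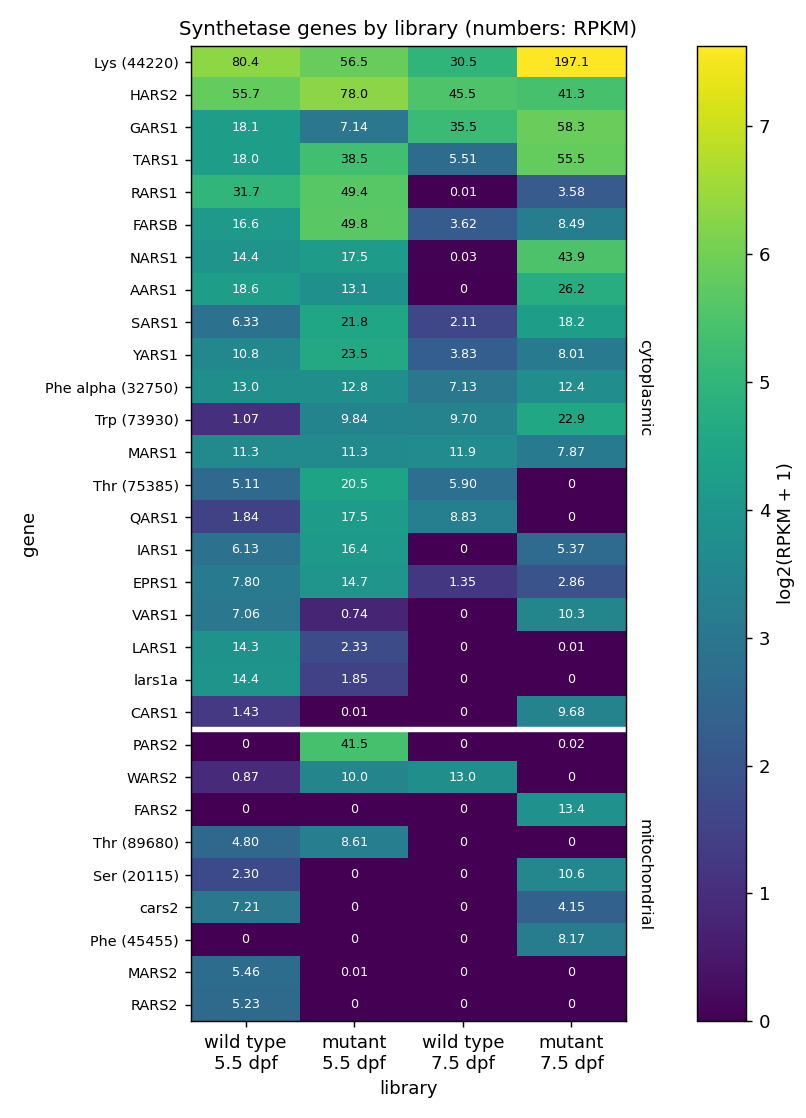
RPKM of 21 of the 22 cytoplasmic (above the white line) and 9 of the 10 mitochondrial (below it) tested synthetase genes in the 4 libraries. Rows are genes in order of mean RPKM within each class, genes without a symbol carry the last 5 digits of their ID, colour is log2(RPKM + 1) and the printed number is RPKM. The lysine enzyme gene in the mutant at 7.5 dpf is the highest value at 197 RPKM, and most mitochondrial rows hold a value in 1 or 2 libraries and 0 in the others.

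Mitochondrial synthetase genes were each carried by few libraries. None of the 10 had more than 3 reads in all 4 libraries, against 12 of the 22 cytoplasmic genes (54.5%) and 43.4% of all tested genes. Most of them were low: 9 had a mean RPKM below 10, and of all tested genes at that level 22.3% had more than 3 reads in all 4 libraries. Of the 8 cytoplasmic genes at that level, 1 had (12.5%), so at like level the classes were close. For 7 of the 10 the mean RPKM of 1 was reached through a single library, as it was for 3 of the 22 cytoplasmic and 31.2% of all tested genes. Such genes differ between libraries by the way they entered, so their counts below are descriptions of where they were read.

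The proline enzyme gene PARS2 was listed at 0, 41.5, 0 and 0.02 RPKM, from 0, 2584, 0 and 1 reads. It had the highest mean of the mitochondrial genes through the 5.5 dpf mutant library alone. The tryptophan enzyme gene WARS2 had 0.87, 10.001, 13.0 and 0 RPKM, and so was absent from the reads of the 7.5 dpf mutant library alone. FARS2, 1 of 2 genes described as the mitochondrial phenylalanine enzyme, had 13.4 RPKM in the mutant at 7.5 dpf and was listed at 0 in the other libraries. The second (ENSDARG00000045455) showed the same pattern with 8.17 RPKM in that library and 0 in the others. If these 2 IDs share near-identical sequence, reads could be split between them, so both values are uncertain.

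The threonine enzyme gene ENSDARG00000089680 was read at 5.5 dpf only, with 4.80 and 8.61 RPKM in wild type and mutant and 0 at 7.5 dpf. The serine enzyme gene ENSDARG00000020115 had 2.30, 0, 0 and 10.6 RPKM, and the cysteine enzyme gene cars2 had 7.21, 0, 0 and 4.15 RPKM. Both were thus read in the same 2 libraries, wild type at 5.5 dpf and mutant at 7.5 dpf. MARS2 (5.46, 0.01, 0 and 0 RPKM) and RARS2 (5.23, 0, 0 and 0 RPKM) were read almost wholly in wild type at 5.5 dpf.

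RARS2, with a mean RPKM of 1.31, lay just inside the minimum and LARS2, with 0.958, just outside it. LARS2 had 3.83 RPKM in wild type at 7.5 dpf and was listed at 0 elsewhere. The other members below the minimum were IARS2 (mean RPKM 0.563), the glutamate gene ENSDARG00000043471, the leucine gene ENSDARG00000089393, the alanine gene ENSDARG00000071240 and the asparagine gene ENSDARG00000062614 among mitochondrial enzymes. The 1 cytoplasmic member below it was the leucine gene ENSDARG00000089031 (mean RPKM 0.0711). Genes for mitochondrial enzymes of 14 amino acids were measured, whereas the cytoplasmic genes covered all 20 amino acids with 19 enzymes, since EPRS1 encodes the joined glutamate and proline enzyme.

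Coverage of the amino acids differed between libraries. More than 3 reads were found for 22, 21, 14 and 18 of the 22 cytoplasmic genes (100, 95.5, 63.6 and 81.8%) and for 7, 4, 2 and 4 of the 10 mitochondrial genes. Every one of the 19 cytoplasmic enzymes had a gene with more than 3 reads in wild type at 5.5 dpf, and the cysteine enzyme alone was without one in the mutant. At 7.5 dpf the mutant library had 3 reads or fewer for every gene of the glutamine and leucine enzymes, and the wild-type library for every gene of those of alanine, arginine, asparagine, cysteine, isoleucine, leucine and valine. A cell needs each of these enzymes for translation, so a gene at 0 here is described as listed at 0 and not as unexpressed. Wild type at 7.5 dpf was the library with the smallest share of genes read both among cytoplasmic synthetase genes and among all tested genes.

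**Figure D2:**
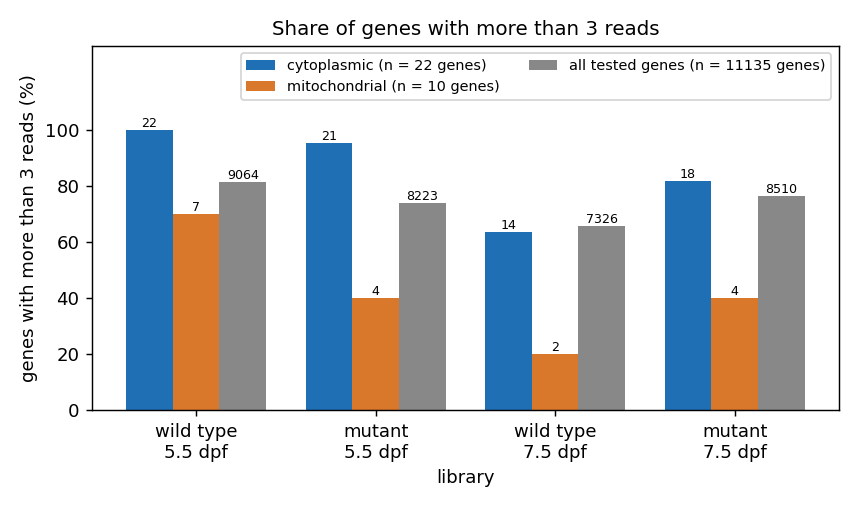
Share of genes with more than 3 reads in each library, for the cytoplasmic and mitochondrial synthetase genes and all tested genes (bars, in percent, with the number of genes above each bar). All 22 cytoplasmic genes pass in wild type at 5.5 dpf and 14 pass in wild type at 7.5 dpf, and the mitochondrial share lies below that of all tested genes in each library. Among genes with a mean RPKM of 1 to 10 (not drawn), the mitochondrial share in wild type at 5.5 dpf was 77.8%, against 72.5% of all tested genes. It lay below that of all tested genes in the other libraries. The share of cytoplasmic genes of that level lay below it as well at 7.5 dpf (37.5% in wild type and 50% in the mutant, against 51.9% and 65.9%).

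At 5.5 dpf, mutant and wild-type libraries differed in both directions among synthetase genes. Differences are of log2(RPKM + 1), and a gene is counted as higher or lower where this reaches 2-fold. Of the 22 cytoplasmic genes 9 were higher (40.9%) and 5 lower (22.7%) in the mutant, against 28.0% higher and 25.6% lower among all tested genes, with medians of 0.55 and 0.00. Scaling by median-ratio size factors lowers each log2 ratio of mutant to wild type by 0.30 here, before 1 is added to the RPKM. It left 6 higher and 5 lower (27.3 and 22.7%) and a median of 0.25, beside 23.8% and 29.1% of all tested genes. Under that scaling the share of higher genes was thus close to the background. TARS1 and YARS1, at 2.15-fold and 2.18-fold higher, were among the 3 genes that came within 2-fold under that scaling.

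Glutamine and phenylalanine enzyme genes were among the higher cytoplasmic genes at 5.5 dpf. QARS1 was at 17.5 RPKM in the mutant and 1.84 in wild type, 9.51-fold higher (8.12 to 11.2). The phenylalanine beta subunit gene FARSB was 3.01-fold higher (2.82 to 3.21), at 49.8 against 16.6 RPKM, the serine enzyme gene SARS1 3.44-fold and the isoleucine enzyme gene IARS1 2.67-fold. A second threonine enzyme gene, ENSDARG00000075385, was 4.02-fold higher, and the tryptophan enzyme gene ENSDARG00000073930 9.23-fold higher from 336 against 36 reads. The 5 lower genes were VARS1 (9.56-fold, valine), LARS1 (6.12-fold) and lars1a (7.79-fold), both listed as leucine enzymes, GARS1 (2.54-fold) and CARS1 (cysteine, 0.01 against 1.43 RPKM). The lysine enzyme gene and AARS1 were both 1.42-fold lower, within the 2-fold rule.

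Of the 10 mitochondrial genes, 2 were higher and 5 lower in the 5.5 dpf mutant (20% and 50%, against 28.0% and 25.6% of all tested genes), with a median of -0.80. With reads below 3 set at 3, the median log2 ratio was -2.61, beside 0.56 for cytoplasmic and 0.00 for all tested genes. PARS2 was at least 852-fold higher and WARS2 11.5-fold higher (8.28 to 16.4). The lower genes included cars2 (at least 202-fold), RARS2 (at least 137-fold), the serine gene (at least 48.9-fold) and MARS2 (1 against 387 reads). MARS2 and RARS2 met the minimum through the wild-type library of this stage, so their place among the lower genes followed from how they entered. Without the minimum on level, 3 of 16 were higher and 5 lower (18.8 and 31.2%), with a median of -0.01. Only 3 mitochondrial genes passed 3 reads in each 5.5 dpf library, of which 1 was higher, 1 lower and 1 within 2-fold, with a median of 0.73. Of the 5 lower genes, 4 had 3 reads or fewer in the mutant.

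At 7.5 dpf cytoplasmic synthetase genes, like all tested genes, were more often higher than lower in the mutant library. Of the 22, 11 were higher (50%) and 3 lower (13.6%), against 40.0% and 23.1% of all tested genes, and the median was 0.97 against 0.33. Median-ratio scaling lowers each log2 ratio of mutant to wild type by 0.44 here, before 1 is added to the RPKM. It moved the median of all tested genes to 0.03 and that of the cytoplasmic genes to 0.60. Of the cytoplasmic genes 9 were then higher and 3 lower (40.9 and 13.6%), beside 35.4 and 26.3% of all tested genes.

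The highest differences at 7.5 dpf were in genes that the wild-type library hardly read. NARS1, the asparagine enzyme gene, was at 43.9 RPKM in the mutant and 0.03 in wild type, 1325-fold higher with an interval of 453 to 6430 from 3 wild-type reads. AARS1, the alanine enzyme gene, was listed at 0 in wild type and stood at 26.2 RPKM in the mutant, which is at least 1217-fold higher. VARS1 (10.3 against 0 RPKM), CARS1 (9.68 against 0) and IARS1 (5.37 against 0) followed the same pattern, and RARS1 had 327 reads against 1. Well-read genes were also higher: the lysine enzyme gene 6.45-fold (6.19 to 6.73), TARS1 10.1-fold (9.21 to 11), SARS1 8.61-fold, the tryptophan enzyme gene 2.36-fold and FARSB 2.35-fold. Where both 7.5 dpf libraries held over 3 reads, 5 of 12 cytoplasmic genes were higher and 1 was lower, beside 35.0% and 21.4% of all such genes.

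The 3 lower cytoplasmic genes at 7.5 dpf included QARS1 (0 against 8.83 RPKM, at least 227-fold) and the threonine gene ENSDARG00000075385 (at least 85.5-fold). MARS1 was 1.52-fold and HARS2 1.1-fold lower, both within the 2-fold rule. Of the 10 mitochondrial genes 4 were higher and 2 lower, close to the 40.0% and 23.1% of all tested genes. The higher ones were FARS2 (at least 507-fold), the serine gene (at least 229-fold), the phenylalanine gene ENSDARG00000045455 (at least 153-fold) and cars2 (at least 118-fold), each listed at 0 in wild type. Among the lower genes, WARS2 (at least 160-fold) was listed at 0 in the mutant. No mitochondrial gene had more than 3 reads in both 7.5 dpf libraries.

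Genotype differences at the 2 stages share no library and could be set side by side. TARS1, FARSB, SARS1, IARS1 and the tryptophan enzyme gene were higher in the mutant at both stages, which is 5 of 22 cytoplasmic genes (22.7%) against 12.1% of all tested genes. Under median-ratio scaling TARS1 came within 2-fold at 5.5 dpf and FARSB and the tryptophan enzyme gene at 7.5 dpf. SARS1 and IARS1 were then the 2 cytoplasmic genes higher at both stages (9.09%, against 8.90% of all tested genes). No cytoplasmic gene was lower at both under either scaling, and few of all tested genes were (7.73% as deposited and 9.92% under median-ratio scaling). In 3 cytoplasmic genes, QARS1 and the threonine gene ENSDARG00000075385 among them, the mutant was higher at 5.5 and lower at 7.5 dpf (13.6%, against 4.10% of all tested genes), and 2 of these 3 were so under median-ratio scaling (9.09%, against 4.03%). The reverse held for VARS1 and CARS1 (9.09%, against 8.41%). HARS2, MARS1, EPRS1 and the phenylalanine alpha subunit gene stayed within 2-fold at both stages on the log2(RPKM + 1) scale (18.2%, against 15.7%). By the ratio of reads, EPRS1 was 1.88-fold higher in the mutant at 5.5 dpf and 2.11-fold higher (1.81 to 2.46) at 7.5 dpf. Among mitochondrial genes WARS2 was higher then lower, and cars2 and the serine gene were lower then higher. Whether any of these differences depended on the stage was not tested, since a genotype at a stage is 1 library.

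**Figure D3:**
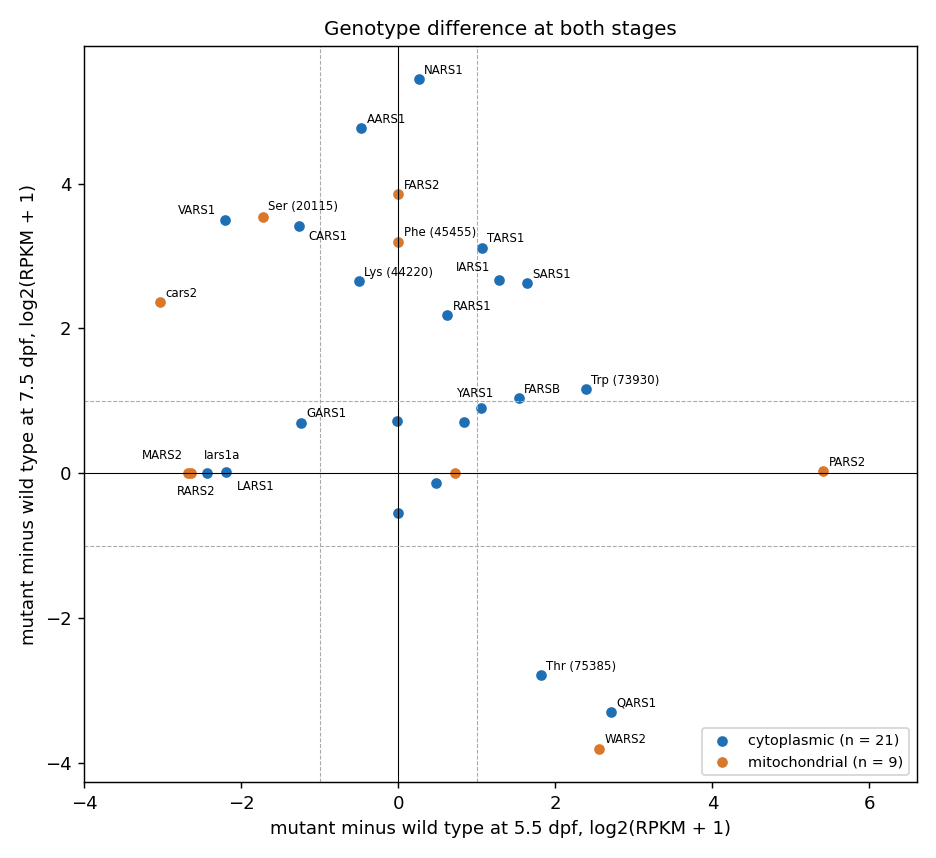
Mutant minus wild-type difference of log2(RPKM + 1) at 5.5 dpf (horizontal) and 7.5 dpf (vertical) for 30 of the 32 tested synthetase genes, 1 point per gene, with dashed lines at 2-fold and labels for genes past 2-fold at either stage. TARS1, FARSB, SARS1, IARS1 and the tryptophan enzyme gene lie past 2-fold in the upper right on this scale (SARS1 and IARS1 alone under median-ratio scaling), and QARS1, WARS2 and a threonine gene lie in the lower right.

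In wild type, most cytoplasmic synthetase genes were lower at 7.5 than at 5.5 dpf. Of the 22, 14 were lower (63.6%) and 3 higher (13.6%), against 30.1% and 21.4% of all tested genes, and the median was -1.33 against -0.01. The counts were the same under median-ratio scaling. With reads below 3 set at 3 the median log2 ratio was -1.64, beside 0.00 for all tested genes. Of the 14 lower genes, 8 had 3 reads or fewer at 7.5 dpf, in the library that read the fewest genes. Of the 14 cytoplasmic genes that held over 3 reads at each stage, 6 were lower (42.9%) and 3 higher (21.4%), beside 18.8% and 25.7% of all such genes.

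Arginine and alanine enzyme genes showed the largest stage differences in wild type. RARS1 went from 31.7 to 0.01 RPKM (3514 reads to 1) and AARS1 from 18.6 to 0 RPKM (at least 864-fold lower). LARS1 and lars1a went from 14.3 and 14.4 RPKM to 0, at least 562-fold and 190-fold lower. Of the genes read at both stages, EPRS1 was 5.76-fold lower (5.06 to 6.58), FARSB 4.58-fold, TARS1 3.26-fold, SARS1 3.0-fold, YARS1 2.82-fold and the lysine enzyme gene 2.63-fold. QARS1 (4.80-fold) and the tryptophan enzyme gene (9.10-fold, from 36 reads) were among the higher genes, while GARS1 (1.96-fold higher) and MARS1 (1.06-fold higher) stayed within 2-fold on the scale used. Among mitochondrial genes 2 were higher, with WARS2 (14.9-fold) among them, and 5 were lower, each of them listed at 0 at 7.5 dpf.

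In the mutant, 10 of 22 cytoplasmic genes were lower (45.5%) and 6 higher (27.3%) at 7.5 dpf, against 26.2% and 33.8% of all tested genes, with medians of -0.68 and 0.04. Of the lower genes, QARS1, ENSDARG00000075385, LARS1 and lars1a had 1 read or fewer at 7.5 dpf. Of the 17 cytoplasmic genes with over 3 reads at each stage, 6 were lower (35.3%) and 5 higher (29.4%). Of all such genes 21.4% were lower and 30.0% higher, and the medians were -0.25 and 0.20. RARS1 was 13.8-fold lower (12.3 to 15.5), FARSB 5.87-fold, EPRS1 5.15-fold, IARS1 3.05-fold and YARS1 2.93-fold. QARS1 and the threonine gene ENSDARG00000075385 went from 17.5 and 20.5 RPKM to 0, at least 449-fold and 297-fold lower. GARS1 (8.16-fold), VARS1 (14-fold), the lysine enzyme gene (3.49-fold), NARS1 (2.50-fold), the tryptophan enzyme gene (2.33-fold) and CARS1 (930 reads against 1) were higher. Mitochondrial genes were higher in 4 of 10 and lower in 3. FARS2 (at least 498-fold) and the serine gene (at least 225-fold) were among the former, and PARS2 (2584 reads to 1) and WARS2 (at least 123-fold) among the latter.

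**Figure D4:**
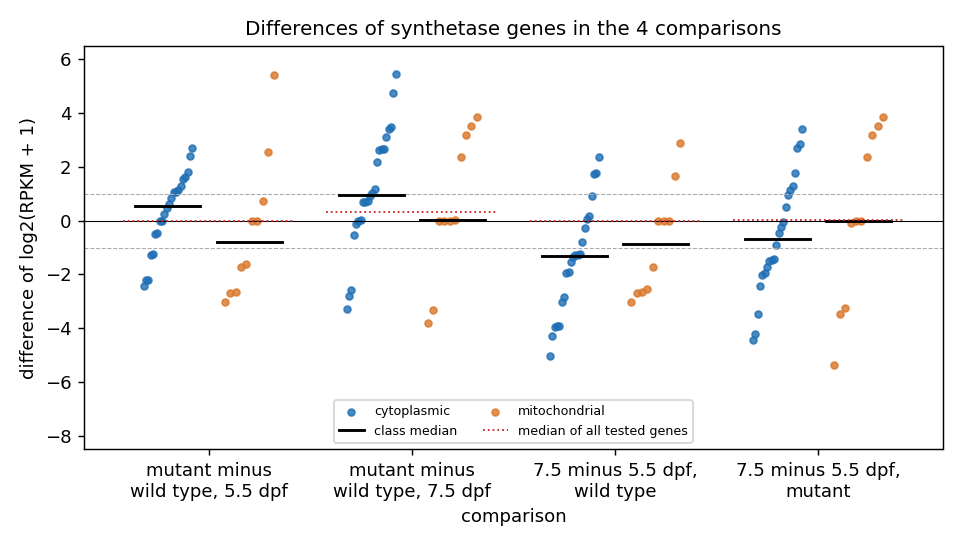
Difference of log2(RPKM + 1) of each tested synthetase gene in the 4 comparisons, 1 point per gene in ascending order, with the class median (black line), the median of all tested genes (dotted red line) and 2-fold (dashed lines). Cytoplasmic medians are 0.55 and 0.97 in the genotype comparisons and -1.33 and -0.68 in the stage comparisons, and neighbouring comparisons share libraries.

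The 2 subunits of the cytoplasmic phenylalanine enzyme, which assemble in equal numbers, did not keep one transcript ratio. The alpha gene had 13.0, 12.8, 7.13 and 12.4 RPKM and the beta gene FARSB 16.6, 49.8, 3.62 and 8.49 RPKM. Beta over alpha was 1.28 (1.17 to 1.40) in wild type and 3.89 (3.61 to 4.19) in the mutant at 5.5 dpf, then 0.508 (0.437 to 0.589) and 0.683 (0.609 to 0.766). Beta exceeded alpha at 5.5 dpf and fell short of it at 7.5 dpf in both genotypes.

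Several cytoplasmic synthetases, including those for glutamate and proline, isoleucine, leucine, glutamine, methionine, lysine and arginine, form the multisynthetase complex together with the scaffold proteins AIMP1, AIMP2 and AIMP3. Its 9 tested synthetase genes, grouped after their values were seen, had a lowest value of 1.84, 1.85, 0 and 0 RPKM. They were lower at 7.5 than at 5.5 dpf in 6 of 9 genes in wild type and 7 of 9 in the mutant, beside 30.1% and 26.2% of all tested genes. They were higher in 2 and 1 genes, beside 21.4% and 33.8%. The 13 other cytoplasmic genes were lower in 8 and higher in 1 in wild type, and lower in 3 and higher in 5 in the mutant. Of the 9, LARS1 and lars1a had 1 read or fewer in each 7.5 dpf library. Among the scaffold genes, aimp2 had 15.5, 17.2, 22.2 and 23.2 RPKM, the AIMP1 gene ENSDARG00000060036 had 76.2, 91.8, 138 and 81.7 RPKM, and eef1e1, which encodes AIMP3, had 22.5, 46.7, 25.5 and 21.3 RPKM. A second AIMP1 gene, ENSDARG00000036894, was read in the 5.5 dpf mutant library alone (8.51 RPKM).

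Both enzymes were compared for 12 amino acids. The joined glutamate and proline enzyme gene EPRS1 was not paired, so glutamate and proline are outside these 12. EPRS1 had 7.80, 14.7, 1.35 and 2.86 RPKM. Its mitochondrial counterparts were PARS2 (0, 41.5, 0 and 0.02 RPKM) and the glutamate gene ENSDARG00000043471 (0.18, 0.16, 0.20 and 0 RPKM). More than 3 reads for both classes were found for 9, 5, 2 and 3 of these 12, and for neither class in 0, 1, 5 and 1. The tryptophan enzymes stood close together in the first 3 libraries, with 1.07, 9.84 and 9.70 RPKM for the cytoplasmic and 0.87, 10.001 and 13.0 RPKM for the mitochondrial gene. In the 7.5 dpf mutant library they parted, at 22.9 and 0 RPKM. The cysteine enzymes were both read in wild type at 5.5 dpf (CARS1 1.43 and cars2 7.21 RPKM) and in the mutant at 7.5 dpf (9.68 and 4.15 RPKM), and neither had more than 1 read in the other two libraries.

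For threonine, both cytoplasmic genes together had 23.1, 59.06, 11.4 and 55.5 RPKM, and the mitochondrial gene was read at 5.5 dpf only. For serine, SARS1 had 6.33, 21.8, 2.11 and 18.2 RPKM, and the mitochondrial gene had 0 in the mutant at 5.5 dpf, where SARS1 was highest. For methionine and arginine the mitochondrial gene was read in wild type at 5.5 dpf and at 1 read or fewer elsewhere, whereas MARS1 was read in all 4 libraries and RARS1 had 3514, 5537, 1 and 327 reads.

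The others of the 12 amino acids were read in the mitochondrial class mostly at trace level. Isoleucine had IARS1 at 6.13, 16.4, 0 and 5.37 RPKM and IARS2 at 0.13, 2.12, 0 and 0 RPKM, so that both were highest in the 5.5 dpf mutant library. Leucine had 28.9, 4.25, 0 and 0.01 RPKM over its cytoplasmic genes, while LARS2 was read only in wild type at 7.5 dpf, where the cytoplasmic genes were at 0. The 3 IDs described as cytoplasmic leucine enzymes may divide the reads of one sequence, so each is uncertain. Alanine and asparagine had at most 9 reads for a mitochondrial gene in any library, beside AARS1 at 18.6, 13.1, 0 and 26.2 RPKM and NARS1 at 14.4, 17.5, 0.03 and 43.9 RPKM. Phenylalanine had mitochondrial reads in the 7.5 dpf mutant library alone, summed to 21.6 RPKM beside 20.9 RPKM for the 2 cytoplasmic subunits.

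**Figure D5:**
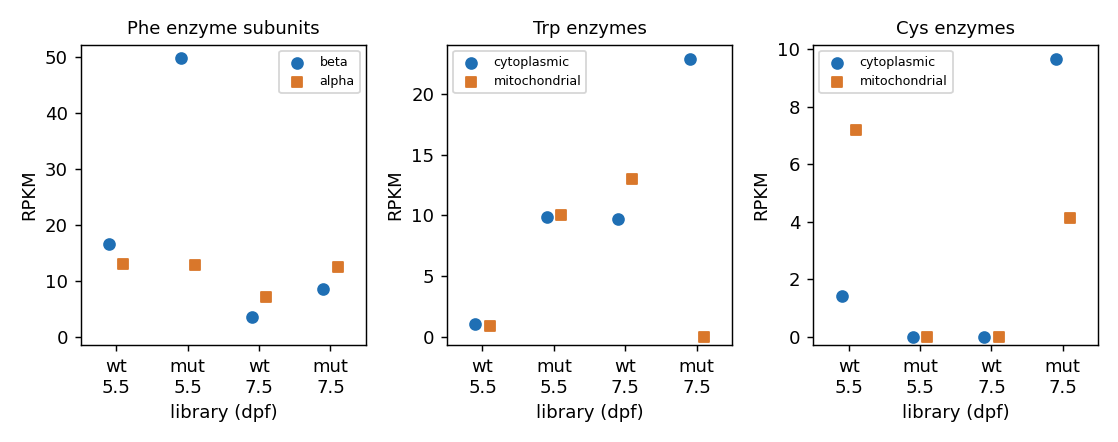
RPKM by library (wt, wild type, and mut, mutant, with the stage in dpf) of the phenylalanine enzyme subunits and of the cytoplasmic and mitochondrial enzymes of tryptophan and cysteine, 1 point per library. The beta subunit reaches 49.8 RPKM in the 5.5 dpf mutant beside 12.8 for alpha, and the tryptophan genes lie close in the first 3 libraries and apart in the last.

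Genes that act beside the synthetases varied in both directions. Of 15 cofactor and tRNA quality genes listed, 11 were tested. In the mutant 3 were higher and 4 lower at 5.5 dpf, and 2 higher and 3 lower at 7.5 dpf, with medians of 0.15 and 0.06. Of all tested genes 28.0% were higher and 25.6% lower at 5.5 dpf, and 40.0% and 23.1% at 7.5 dpf. The mitochondrial glutamine amidotransferase subunit gene qrsl1 had 9.02, 0, 14.9 and 0.02 RPKM, gatb 0.01, 0, 6.88 and 0 RPKM, and the methionyl-tRNA formyltransferase gene mtfmt 3.09, 0.05, 15.5 and 0 RPKM. The third amidotransferase subunit gene, gatc, was read in every library, with 34.5, 48.3, 63.1 and 108 RPKM. The genes ptrh2, for a peptidyl-tRNA hydrolase (20.2, 49.4, 7.22 and 83.8 RPKM), and dtd2, for a D-aminoacyl-tRNA deacylase (7.72, 68.5, 0 and 5.27 RPKM), were higher in the mutant at both stages.

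Of 25 tRNA maturation and export genes, 20 were tested, with 3 higher and 6 lower in the mutant at 5.5 dpf and 9 higher and 3 lower at 7.5 dpf. The shares of all tested genes were again 28.0% and 25.6% at 5.5 dpf, and 40.0% and 23.1% at 7.5 dpf. The gene ssb, for the La protein that binds new tRNA transcripts, was 8.04-fold higher at 5.5 dpf (170 against 21.2 RPKM) and trmt61a, for a tRNA methyltransferase subunit, 9.56-fold higher. The ribonuclease P subunit gene rpp40 was lower in the mutant at 5.5 dpf (0 against 3.18 RPKM) and higher at 7.5 dpf (19.6 against 0 RPKM). Another gene of that enzyme, rpp14, was lower in the mutant at both stages, with 10.5, 0.27, 9.70 and 0 RPKM.

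Synthetase genes in mammals are among the targets of ATF4, the transcription factor of the amino acid response. Of 31 genes listed for that response, 19 were tested, and 5 were higher and 3 lower in the mutant at 5.5 dpf, 6 higher and 2 lower at 7.5 dpf (medians 0.29 and 0.20). The shares higher were thus near or below the 28.0% and 40.0% of all tested genes. The gene atf4b, for a form of ATF4, had 159, 161, 156 and 146 RPKM. The listed gene atf4a could not be matched to an ID, so the total of ATF4 transcripts was not measured. Among the stress genes of the response, ddit3 had 134, 115, 268 and 220 RPKM, and chac1 135, 138, 441 and 276 RPKM. In contrast, sesn2 had 0, 6.33, 0 and 0.81 RPKM and ddit4 0, 66.6, 0.03 and 0 RPKM, with most of their reads in the 5.5 dpf mutant library. The asparagine synthetase gene asns, an amidotransferase and no tRNA ligase, had 3.34, 0.50, 0.13 and 0.29 RPKM. Higher in the mutant at both stages were vldlr (0.27, 10.4, 0 and 19.0 RPKM) and nupr1a (9.24, 39.6, 18.5 and 44.2 RPKM), and cebpb had 193, 382, 272 and 574 RPKM. The related and more abundant gene nupr1b had 688, 841, 473 and 113 RPKM. It was 1.22-fold higher in the mutant at 5.5 dpf and 4.18-fold lower at 7.5 dpf.

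Markers of other cells moved beside the 7.5 dpf differences. All 11 tested macrophage markers were higher in the mutant at 7.5 dpf, beside 40.0% of all tested genes. Several of the 11 are IDs with the symbol mfap4. The markers marco, lcp1, cybb, c1qb and the mfap4 gene ENSDARG00000090783 were read in that library alone and met the minimum through it. The mfap4 genes ENSDARG00000088745 and ENSDARG00000089667 also met it through that library. That all these were higher there followed from how they entered. Of matched markers below the minimum, c1qa had 2.49 RPKM in the 5.5 dpf mutant alone and c1qc had 0 throughout. The mfap4 genes ENSDARG00000038681 and ENSDARG00000038683, also below it, had 2.43 and 0.38 RPKM in the 7.5 dpf mutant. Wild type of that stage had 0.08 and 0. The summed RPKM of the macrophage list was 15.4, 38.5, 10.1 and 394, with 12, 7, 10 and 2 of its 15 matched genes at 0. Neutrophil markers summed to 30.9, 61.5, 6.05 and 322 RPKM, with 6, 5, 6 and 5 of the 9 matched genes at 0. In the mutant at 7.5 dpf nccrp1 (131 RPKM) and srgn (125 RPKM) led that sum, whereas lyz, npsn and csf3r were listed at 0. Exocrine pancreas markers summed to 471, 46.2, 1986 and 507 RPKM. Biliary and stellate markers summed to 569, 1367, 1227 and 3870 RPKM, erythroid ones to 12, 19.1, 0.427 and 40.1 RPKM, and skin, muscle and lens ones to 4806, 8878, 8437 and 7003 RPKM. Hepatocyte markers were lower in 12 of 14 genes in the mutant at 7.5 dpf, beside 23.1% of all tested genes. In such bulk samples fewer cells of a type and less RNA per cell cannot be told apart, and the part of other cells in the synthetase values was not tested.

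The 4 libraries allow one replicated contrast per factor, in which the stages serve as replicates for genotype and the genotypes for stage. With limma on log2(RPKM + 1), 244 of the 11135 tested genes passed an adjusted p of 0.05 for genotype (1.16% higher and 1.03% lower in the mutant) and 95 for stage (0.260% and 0.593%), and 0 of the 32 synthetase genes passed for either. At an unadjusted p of 0.05, limma passed 1202 of the 11135 tested genes for genotype and 833 for stage. Among them, 2 synthetase genes passed for genotype and 1 for stage. These were NARS1 (log2 difference 2.85, SE 1.27, limma adjusted p = 0.33) and TARS1 (2.09, SE 1.02, adjusted p = 0.42), both with a positive difference at each stage, and RARS1 (-4.24, SE 1.32, adjusted p = 0.10), lower at 7.5 dpf in both genotypes. On recovered reads, edgeR's quasi-likelihood test called 0 genes of the whole table for either factor, with 342 genes but 0 synthetase genes at an unadjusted p of 0.05 for genotype and 203 and 0 for stage. DESeq2 called 781 of the 11135 tested genes for genotype and 504 for stage. Among synthetase genes it called 0 for genotype and 2 for stage, RARS1 (adjusted p = 0.0011) and LARS1 (adjusted p = 0.010), both lower at 7.5 dpf. At an unadjusted p of 0.05, DESeq2 passed 6 of the 32 synthetase genes for genotype, with a smallest adjusted p of 0.051 for AARS1, and 7 for stage. Of the 11135 tested genes it passed 2210 for genotype and 1904 for stage. AARS1 differed in opposite directions at the stages. It was 1.42-fold lower in the mutant at 5.5 dpf and higher at 7.5 dpf against 0 reads in wild type. A p that misses the threshold with 2 libraries a side does not show that the levels were alike.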

How the data were processed

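The authors deposited RPKM for 33737 genes in 4 libraries and 4 comparison tables with 2 normalized columns, a fold change, a log2 fold change, p-values and a description per gene, per the file headers. The submitters' processing notes name DESeq 1.16.0, HTSeq 0.6.0, TopHat2 2.0.12 and Bowtie2 2.2.3, without role or order. The genome build, annotation and strand setting were not given in the sources used here. From their values the deposited normalized columns are CPM, with 0 reads written as 0.5 of a read or a value close to 0. Dividing by each column's step gave whole reads for 100% of values above 0 within a tolerance of 0.01, and 1502 of the 44540 values of tested genes were not listed and were filled from RPKM. The deposited ratio (fold change), log2 and p-value columns entered no call, because they rest on single libraries, except that the authors' log2 fold change served as an alternative. Their deposited tables mark 9 cytoplasmic genes as higher and 6 as lower at 5.5 dpf in the mutant, and 13 and 3 at 7.5 dpf. That is 65.2% of the 23 cytoplasmic genes listed at 5.5 dpf and 80% of the 20 at 7.5 dpf. Of all listed genes 74.7% and 80.7% were marked.

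Sample titles gave the genotype and stage of each library. Changes were taken on the log2(RPKM + 1) scale, on which those of low genes come out too small, among genes with a mean RPKM of at least 1, with a 2-fold rule and no test within a comparison. A fold is the ratio of reads per library size with a 95% exact conditional interval. Against 0 reads it is a bound computed with 3 reads per library, and Smart-seq2 reads carry no molecular identifiers, so intervals and bounds cover counting error only. The limma 3.58.1 fit (trended prior, stage and genotype as terms, Benjamini-Hochberg over all tested genes), edgeR 4.0.16 and DESeq2 1.42.0 were run in R 4.3.3 and tested on simulated data. The prior of limma was estimated so strong that genes of like level share one spread. DESeq2 gave no adjusted p to some low genes, which were left as missing.

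The members, the lists beside them and the rules were chosen with earlier results of these data known. Every member may be named, and full values go to the largest differences among genes with at least 10 RPKM, the most abundant genes, those nearest the minimum and those with an enzyme in both classes. Symbols matched 27 of 39 member IDs and 65.0% of all IDs. Sequences and coordinates are not used here, and the values of a few genes are not reported here, although counts and medians include them.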

Additional observations from a re-analysis of the deposited data

Results flagged for a closer look

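For 7 of the synthetase genes reported here, the mutant and wild-type libraries differed by 2-fold or more in opposite directions at the 2 stages. Of all 11135 tested genes, 4.10% were higher then lower in the mutant and 8.41% lower then higher. The difference at 7.5 dpf minus that at 5.5 dpf, on the log2(RPKM + 1) scale, was -4.60 for ENSDARG00000075385, -6.00 for QARS1 and -6.36 for WARS2, all higher in the mutant at 5.5 dpf and lower at 7.5 dpf. It was 5.71 for VARS1, 4.68 for CARS1, 5.26 for ENSDARG00000020115 and 5.40 for cars2, all lower and then higher. These differences between stages were not tested, since each value is 1 library. None of the 7 had more than 3 reads in all 4 libraries.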

How the results depend on the processing

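No paired analysis was possible because each group has 1 library, and for the same reason no library could be left out of a comparison. The 16 shares of cytoplasmic or mitochondrial genes 2-fold higher or lower were recomputed under 9 alternatives, and 126 of 140 values stayed inside the exact 95% binomial interval of the share as reported. Those intervals treat genes as independent and are wide. The 40.9% of cytoplasmic genes higher in the mutant at 5.5 dpf has an interval of 20.7 to 63.6%. Its 27.3% under median-ratio scaling thus counted as inside, so staying inside does not show that a share was stable. With a 4-fold rule the cytoplasmic shares were 9.09% higher in the mutant at 5.5 dpf, 31.8% lower between stages in wild type and 22.7% lower between stages in the mutant. With the minimum raised to a mean RPKM of 10, the cytoplasmic share lower at 5.5 dpf was 7.14% of 14 genes, and the mitochondrial class was reduced to PARS2 alone, giving shares of 100% higher and 0% lower at 5.5 dpf, 0% and 0% at 7.5 dpf, 0% and 0% between stages in wild type, and 0% and 100% between stages in the mutant. Where both libraries had to hold over 3 reads, 2 mitochondrial genes were left between stages in wild type, with 100% higher and 0% lower. No member was other than a synthetase by its description, so leaving such members out changed nothing. No synthetase gene was called for genotype under any of the 8 alternative fits, and for stage only DESeq2 made calls, 2 in number. At these depths a fold against 0 reads is a bound only, and none of the 10 tested mitochondrial genes had more than 3 reads in all 4 libraries.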
